A study of Mus musculus with 3 samples.

Results

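The 46 genes described here are a set of cell cycle genes listed by name. No measured value enters the rule, but the list was drawn up with earlier results of these data known. They fall into 12 genes of replication licensing (the loading of the replicative helicase onto DNA), 18 genes that act at the passage from G1 into S phase or in S phase, 13 genes of G2 and mitosis, and 3 genes for inhibitors of cyclin-dependent kinases. All 46 matched by symbol to the RefSeq gene table of the mouse build GRCm38.p6 (mm10), which holds 21883 protein-coding genes on named chromosomes. Wild-type mouse otocysts, the epithelial vesicles from which the inner ear forms, were dissected at E10.5 (embryonic stage), and 34 of them were pooled and dissociated. The cells were split into 3 samples for CUT&Tag, in which an antibody brings the transposase Tn5 to chromatin near its target: an antibody against the chromatin remodeler CHD7, an antibody against the transcription factor SOX2, and no primary antibody (not analysed here). The pool mixes every cell type of the dissected vesicle and of any tissue taken with it. With 1 library per antibody from 1 pool of cells there is no replicate, so no difference below carries a test, and intervals cover counting error only. Reads amplified by PCR and carrying no molecular identifier do not each stand for a separate molecule.

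The CHD7 list held 33035 peaks and the SOX2 list 155548. The depth of sequencing is unknown. The total coverage signal given for a peak is the authors' value and its scaling is unknown, so a peak is placed only within its own list: its percentile is the share of that list with an equal or lower total signal. The smallest total signal was 433 in the CHD7 list and 733 in the SOX2 list, and the medians were 651 and 997. Beside the tissue label, 7 of 13 otocyst marker genes had a CHD7 peak within 1 kb of an end and 9 a SOX2 peak, where 30.8% and 59.7% of all protein-coding genes did, with both at Sox2, Dlx5, Dlx6, Tbx2, Gbx2 and Hmx3, among others. Pax2, Pax8, Hmx2 and Oc90 had neither at an outer border, and Pax2 had both over a start site inside the gene. CHD7 was at 0 of 4 endothelial, 0 of 4 liver, 1 of 4 blood and 3 of 4 mesenchymal markers. SOX2 was at 3, 1, 2 and 4 of the same, so its peaks do not set the otocyst markers apart from these. CHD7 peaks do not set the otocyst markers apart from the mesenchymal ones either. A peak does not show that a gene is expressed, and the part of other cell types in the results was not tested.

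Cells enter the cycle when D-type cyclins with CDK4 or CDK6, and then E-type cyclins with CDK2, phosphorylate the retinoblastoma proteins and release E2F factors, which activate genes for DNA replication. Before S phase the origin recognition complex, CDC6 and CDT1 load the MCM helicase, and entry into mitosis follows when CDK1 is activated by cyclins A and B. In the inner ear, withdrawal from the cycle marks the differentiation of sensory precursors, and the inhibitor p27Kip1, encoded by Cdkn1b, is known for its role there. SOX2 is needed for the sensory precursors, and CHD7 is mutated in CHARGE syndrome, which affects the ear.

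Peaks of both lists lay at the ends of most of these genes. A SOX2 peak was found within 1 kb of an outer border of 41 of the 46 genes, or 89.1% (exact 95% binomial interval 76.4% to 96.4%), where 59.7% of all protein-coding genes had a SOX2 peak. CHD7 was at 26 of 46, or 56.5% (41.1% to 71.1%), where 30.8% of all protein-coding genes had CHD7. Both proteins were at 24 of 46 genes, or 52.2% (36.9% to 67.1%), against 28.3% of all protein-coding genes. The CHD7 and SOX2 peaks shared at least 1 base at 22 of the 46, or 47.8%, against 26.5% of all protein-coding genes. Among genes with both proteins, such an overlap was found at 22 of 24 members and at 5803 of 6190 protein-coding genes. When 1465 olfactory and vomeronasal receptor genes, which are silent in most tissues, were left out of the background, its shares were 32.9% for CHD7 and 63.0% for SOX2. The genes themselves were of ordinary length, with a median of 14522 bases against 17170 for all protein-coding genes.

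All 4 classes held genes with both proteins. CHD7 was at 6 of 12 licensing genes, 9 of 18 G1/S genes, 8 of 13 G2/M genes and 3 of 3 inhibitor genes. SOX2 was at 10 of 12, 17 of 18, 12 of 13 and 2 of 3. The interval for CHD7 ran from 21.1% to 78.9% in the licensing genes, from 26.0% to 74.0% in the G1/S genes, from 31.6% to 86.1% in the G2/M genes and from 29.2% to 100% in the inhibitors, so these ranges overlapped throughout. SOX2 without CHD7 was found at 17 of the 46 genes, or 37.0%, against 31.4% of all protein-coding genes. CHD7 without SOX2 was at 2, or 4.35%, against 2.51%, and neither protein at 3, or 6.52%, against 37.8%. Where CHD7 was present SOX2 was too at 92.3% of the members (74.9% to 99.1%) and at 91.8% of all protein-coding genes.

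**Figure D1:**
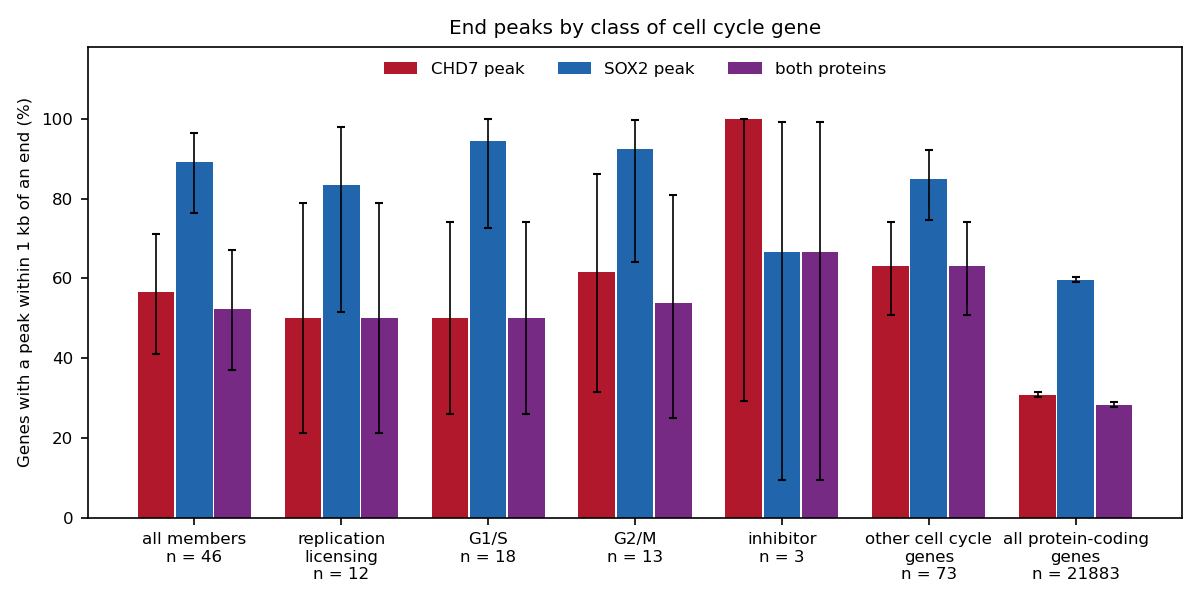
Bars give the percentage of genes with a CHD7 peak, a SOX2 peak or both within 1 kb of an end, by class, with the number of genes under each group and exact 95% binomial intervals as error bars. SOX2 bars stand above CHD7 bars in every group except the 3 inhibitors, and over all 46 members the bars reach 56.5%, 89.1% and 52.2% against 30.8%, 59.7% and 28.3% of all protein-coding genes.

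The promoters below show what the classes carry in their own sequence. The RefSeq promoter table gave a start site and strand for 36 of the 46 genes, in 42 windows of 300 bases (250 before the start site and 50 from it on), since 6 genes had 2 entries; Mcm4, Gmnn, Ccnd1, Ccnd2, Ccne2, Rb1, Ccna2, Cdc25c, Aurkb and Cdkn1c had no entry. Each line below gives the 250 bases before a start site, 5′ to 3′ on the gene's strand, in build GRCm38.p6. Capitals mark the letters of 4 motifs searched on both strands. These are E2F (TTTCCCGC, TTTCGCGC, TTTGCCGC or TTTGGCGC), the cell cycle homology region or CHR (TTTGAA or TTCGAA), the CCAAT box (CCAAT), and SOX (ACAAAG or ACAATG). The promoters were chosen, after the values were seen, to show an E2F gene with both proteins over the start (Cdc6, chr11:98907901-98908150, plus strand) and with SOX2 alone (Mcm6, chr1:128359706-128359955, minus strand). Cdk4 (chr10:127063285-127063534, plus strand) holds none of the letters and has both proteins. Among G2/M promoters, Cdk1 (chr10:69352913-69353162, minus strand) and Cdc20 (chr4:118437344-118437593, minus strand) have both proteins, Top2a (chr11:99024190-99024439, minus strand) has SOX2 alone and Ccnb2 (chr9:70421555-70421804, minus strand) CHD7 alone. Mcm2 (chr6:88898781-88899030, minus strand) has neither.
Cdc6: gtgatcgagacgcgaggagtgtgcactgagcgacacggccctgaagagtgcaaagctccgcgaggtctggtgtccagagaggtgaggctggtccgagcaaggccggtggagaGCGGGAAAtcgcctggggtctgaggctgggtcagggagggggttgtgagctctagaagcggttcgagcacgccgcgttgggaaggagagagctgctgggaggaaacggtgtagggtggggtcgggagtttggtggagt
Mcm6: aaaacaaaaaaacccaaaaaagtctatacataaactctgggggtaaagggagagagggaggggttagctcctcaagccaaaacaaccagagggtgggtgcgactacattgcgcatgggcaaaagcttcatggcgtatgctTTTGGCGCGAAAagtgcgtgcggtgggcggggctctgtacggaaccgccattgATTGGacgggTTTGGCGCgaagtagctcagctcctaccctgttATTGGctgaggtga
Cdk4: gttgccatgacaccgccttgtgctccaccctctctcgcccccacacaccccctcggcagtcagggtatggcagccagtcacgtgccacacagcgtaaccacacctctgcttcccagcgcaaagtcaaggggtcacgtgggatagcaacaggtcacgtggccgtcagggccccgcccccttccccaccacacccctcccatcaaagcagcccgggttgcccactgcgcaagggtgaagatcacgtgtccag
Cdk1: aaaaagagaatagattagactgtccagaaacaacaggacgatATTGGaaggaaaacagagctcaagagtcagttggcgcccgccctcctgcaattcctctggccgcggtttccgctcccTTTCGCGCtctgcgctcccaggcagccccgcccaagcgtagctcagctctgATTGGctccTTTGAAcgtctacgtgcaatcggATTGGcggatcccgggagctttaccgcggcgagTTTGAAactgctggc
Cdc20: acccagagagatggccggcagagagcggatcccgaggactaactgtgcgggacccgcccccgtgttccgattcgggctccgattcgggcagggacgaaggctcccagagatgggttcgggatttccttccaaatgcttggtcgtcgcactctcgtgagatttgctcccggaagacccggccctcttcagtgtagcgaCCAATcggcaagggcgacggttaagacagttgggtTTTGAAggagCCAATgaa
Top2a: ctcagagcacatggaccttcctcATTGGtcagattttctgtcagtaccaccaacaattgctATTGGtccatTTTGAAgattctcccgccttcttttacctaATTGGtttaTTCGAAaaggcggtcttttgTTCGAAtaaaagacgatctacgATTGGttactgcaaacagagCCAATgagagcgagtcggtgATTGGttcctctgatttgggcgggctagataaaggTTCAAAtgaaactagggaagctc
Ccnb2: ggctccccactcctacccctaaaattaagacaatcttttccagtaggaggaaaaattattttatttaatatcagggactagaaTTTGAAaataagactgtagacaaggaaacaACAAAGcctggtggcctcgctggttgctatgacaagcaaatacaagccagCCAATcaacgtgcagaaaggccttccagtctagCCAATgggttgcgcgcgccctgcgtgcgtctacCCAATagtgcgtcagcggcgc
Mcm2: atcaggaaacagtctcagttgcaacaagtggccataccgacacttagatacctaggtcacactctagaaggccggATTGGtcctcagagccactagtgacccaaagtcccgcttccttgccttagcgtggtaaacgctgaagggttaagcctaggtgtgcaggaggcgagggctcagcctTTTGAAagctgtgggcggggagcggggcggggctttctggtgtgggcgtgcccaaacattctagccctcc

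The letters differed between the classes, in small numbers that were not tested. E2F letters were in 7 of 12 licensing windows, 5 of 17 G1/S windows and 1 of 10 G2/M windows, that of Cdk1, against 2.85% of all 21262 promoter windows of protein-coding genes. CHR letters were in 9 of 10 G2/M windows, against 17.6% of all windows; Ccnb1 was the G2/M window without them. CCAAT was in 10 of 10 G2/M windows, in 10 of 12 licensing windows and in 9 of 17 G1/S windows, against 38.2% of all windows. The Top2a window held 6 CCAAT and 4 CHR matches, and Cdk1 held 3 CCAAT matches, at bases -208 to -204, -80 to -76 and -48 to -44, and CHR at -71 to -66 and -15 to -10, counted from the start site. SOX letters were in 8 of 42 windows, or 19.0%, against 25.7% of all windows and 18.9% of the windows whose start lay under a SOX2 peak. Windows of members with CHD7 over the start held E2F in 30.4% and CHR in 30.4%, and those without CHD7 held both in 31.6%. Matches of different motifs shared a base in 1 place, in the Mcm7 window. A match is a description of letters and not of binding.

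Members' promoters were rich in CpG. The median ratio of observed to expected CpG was 0.879 (interquartile range 0.713 to 0.962) over the 42 windows and 0.567 (0.226 to 0.827) over all windows. Over all protein-coding genes, windows whose start lay under a CHD7 peak had a median ratio of 0.807 against 0.381 in the others, and under a SOX2 peak 0.768 against 0.325. Of all windows with a ratio at or above the members' median, 46.7% had CHD7 and 59.8% SOX2 over the start. Of the members' 42 windows, at any ratio, 54.8% and 71.4% did. These sets were not matched for CpG, with median ratios of 0.979 and 0.879. CpG content thus moved with the peaks in all genes, and its part in the members' shares was not tested.

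Most end peaks of these genes lay at the start of transcription. Of the 36 genes with a start site, 29 had a SOX2 peak covering one, or 80.6% (exact 95% interval 64.0% to 91.8%), where 41.4% of protein-coding genes with an entry did. CHD7 covered a start site of 21 of 36, or 58.3% (40.8% to 74.5%), against 27.6% of protein-coding genes with an entry. Of the 23 CHD7 end peaks whose side is known, 19 were at the start side and 4 at the other end, and of 47 SOX2 end peaks 38 and 9. The same split over all protein-coding genes is not given here, so it is not shown to be particular to the members. The region of highest signal of a start-covering CHD7 peak was centred at a median of -56.5 bases from the start (interquartile range -204 to 116), and that of a SOX2 peak at 22 bases (-173 to 139). Over all protein-coding start sites the medians were -65.5 and -8.5 bases.

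Peaks at start sites inside a gene were missed by the outer borders. With these counted, 29 of 46 genes had CHD7 at an end or a start site, against 32.9% of all protein-coding genes, and 43 of 46 had SOX2, against 62.5%. Orc1, for the largest subunit of the origin recognition complex, had a CHD7 peak over its inner start (chromosome 4, 108578251 to 108579800, total signal 715, percentile 58.0) that also lay at an end of Prpf38a. Ccnd3, for cyclin D3, had a SOX2 peak over its inner start site (chromosome 17, 47593401 to 47594400, total signal 2023). Cdk6 and E2f2 gained CHD7 in this way. Cdkn1a gained SOX2 at its inner start, where the peaks had total signals of 701.4 for CHD7 (chromosome 17, 29093351 to 29095150) and 938.3 for SOX2. Mcm2 was the 1 member with neither protein at an end or a start site.

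**Figure D2:**
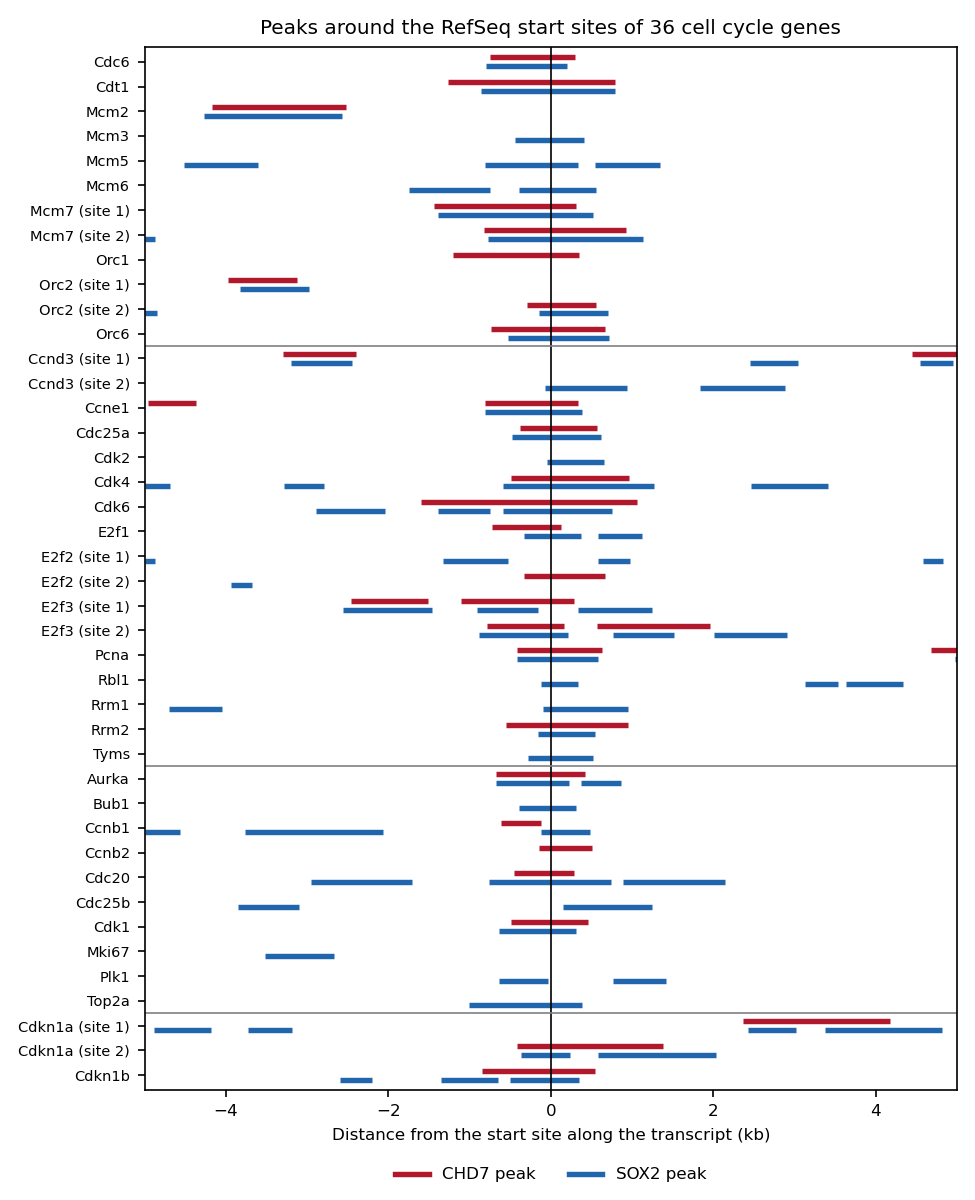
Horizontal bars show the spans of CHD7 (upper, red) and SOX2 (lower, blue) peaks within 5 kb of each RefSeq start site of the 36 genes that have one, oriented along the transcript, with grey lines between licensing, G1/S, G2/M and inhibitor genes. Bars gather on the vertical line at the start site, which SOX2 peaks covered in 29 genes and CHD7 peaks in 21, while rows such as Mcm2 and Mki67 are empty there.

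The 6 Mcm genes encode the ring that unwinds DNA ahead of the fork. Mcm4 (chromosome 16, 15623897 to 15637400) had both peaks at its higher-coordinate end, also within 1 kb of an outer border of Prkdc. Their total signals were 1904 for CHD7 (percentile 93.4) and 6334 for SOX2 (percentile 99.1). Mcm7 (chromosome 5, 138164583 to 138172111) had 1375 for CHD7 (percentile 87.8) and 6128 for SOX2 (percentile 99.0) at its start, which also lies at an end of Ap4m1. Mcm3, Mcm5 and Mcm6 had SOX2 over the start, with total signals of 2668, 2522 and 2053, and no CHD7 at an end. Mcm2 (chromosome 6, 88883474 to 88898780) had no end peak, and an overlapping pair began 2521 (CHD7) and 2571 (SOX2) bases before its start, at an end of Tpra1, with a total signal of 1016 for CHD7 and 3108 for SOX2. At an end, 2 of 6 Mcm genes had CHD7, a share near the 30.8% of all protein-coding genes, and 5 of 6 had SOX2, against 59.7%.

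Among the loading factors, Cdt1, Cdc6, Orc2 and Orc6 had both proteins at an end, as did 28.3% of all protein-coding genes. Orc1 had neither at an outer border. Cdt1, which brings the helicase to origins, had a CHD7 peak of 1011 (percentile 78.7) and a SOX2 peak of 2991 (percentile 95.5) over its start. Cdc6, its partner in loading, had weaker peaks of 537.4 (percentile 30.1) and 1202 (percentile 68.1). Gmnn encodes geminin, which binds CDT1 and blocks relicensing, and had SOX2 alone, at 1407. Of the origin recognition complex, Orc6 had a CHD7 peak of 1740 (percentile 92.2) and a SOX2 peak of 3225 (percentile 96.2) at a start that lies also at an end of Vps35. Orc2 had a CHD7 peak of 437.2, at percentile 3.02 close to the bottom of the list, under a SOX2 peak of 1759 (percentile 86.6).

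In the G1/S class, Cdk4 placed first among genes with both proteins at an end, by the lower of its CHD7 and SOX2 ranks of summed end signal. Cdk4 (chromosome 10, 127063535 to 127067288), the kinase partner of D-type cyclins, had a CHD7 peak of 1453 (percentile 89.0) inside the span of a SOX2 peak of 6979 (percentile 99.2), and a further SOX2 peak of 1583 at its other end. Pcna, the sliding clamp of the replicative polymerases, had a start peak of 1576 for CHD7 (percentile 90.6) and of 3401 for SOX2 (percentile 96.6), at a place that is also an end of Cds2. The cyclin E genes had both proteins: Ccne1 with 778.8 for CHD7 and 3431 for SOX2, and Ccne2 with 1070 and 3724 for the overlapping pair. D-type cyclins differed from each other: Ccnd2 had both (1371 and 1789), Ccnd1 had SOX2 alone at an end (1056, percentile 58.5), and Ccnd3 had neither at an end. Cdk2 had SOX2 over its start (1114, percentile 62.5) and no CHD7.

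At their ends, the E2F and pocket protein genes ran from 2 CHD7 peaks to none. E2f3, an activating E2F, had 2 CHD7 peaks (1143 and 705.9) and 2 SOX2 peaks (2580 and 1056), which overlapped in pairs. CHD7 covered both of its start sites and SOX2 the outer one. E2f1 had a CHD7 peak of 560.2 (percentile 34.6) and a SOX2 peak of 879.7 (percentile 29.5) over its start, and a CHD7 peak at the floor of the list (432.7) at its other end. E2f2 had SOX2 peaks of 762.4 and 821 on either side of its outer start. Rb1 and Rbl1, which encode pocket proteins that hold E2F factors inactive, had SOX2 (1261 and 1173) and no CHD7 at an end. Inside Rbl1, away from its ends, lay a CHD7 peak of 2040 (percentile 94.3) that overlapped SOX2. The CHD7 peaks inside Rb1 reached 592.1 (percentile 40.9). Cdc25a, whose phosphatase activates CDK2, had a CHD7 peak of 455.4, at percentile 8.8, under a SOX2 peak of 2668 (percentile 94.3). Of the nucleotide synthesis genes, Rrm2 had both (765.1 and 938.3), and Rrm1 and Tyms had SOX2 alone (2141 and 938.3).

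In the G2/M class, the pair at Ccna2 stood at the top. Ccna2 encodes cyclin A2 (chromosome 3, 36564865 to 36573038) and had a CHD7 peak of 1717 (percentile 92.0) and a SOX2 peak of 4662 (percentile 98.2), at an end shared with Bbs7. Cdc20, the mitotic activator of the anaphase-promoting complex, had 751.5 for CHD7 (percentile 61.8) and 3284 for SOX2 (percentile 96.3). The Aurora kinase genes both carried both proteins, Aurka with 628.5 and 2698 and Aurkb with 710.5 and 2874. Cdk1, the mitotic kinase, had 655.8 (percentile 51.0) and 1525 (percentile 81.9). The cyclin B genes had weak peaks. Ccnb1 had a CHD7 peak of 510.1 just before its start and a SOX2 peak of 821 (percentile 17.9) over it, with no base in common, and Ccnb2 had CHD7 alone at 482.8 (percentile 17.0).

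Other mitotic genes had SOX2 alone or at a different end. Bub1, a spindle checkpoint kinase, had SOX2 over its start (1701) and CHD7 at its other end (601.2). Top2a, the topoisomerase that untangles chromosomes, had a SOX2 peak of 1349 over its start. Plk1, a mitotic kinase, had SOX2 peaks of 1173 and 1466 on either side of its start and none over it. Cdc25b, whose phosphatase activates CDK1, had a SOX2 peak of 2229 that began after its start. Mki67, the gene of the proliferation marker Ki-67, had SOX2 peaks of 1466 and 938.3 at its far end and no peak of either list over its start. Cdc25c had a SOX2 peak of 938.3.

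Each of the 3 inhibitor genes had CHD7 at an end. Cdkn1b (chromosome 6, 134920401 to 134925525) had a CHD7 peak of 1366 (percentile 87.7) and a SOX2 peak of 2463 (percentile 93.4) over its start. Cdkn1c, for p57Kip2, had 605.7 (percentile 43.0) and 2111 (percentile 90.8). Cdkn1a, for p21Cip1, had a CHD7 peak of 628.5 (percentile 46.4) beyond its far end and no SOX2 peak at an outer border, beside the pair at its inner start. Farther out, an overlapping pair between genes, 44076 bases beyond Cdkn1b for the CHD7 peak, reached 2678 for CHD7 (percentile 96.8) and 8269 for SOX2 (percentile 99.5), above the peaks at the gene itself in both lists.

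**Figure D3:**
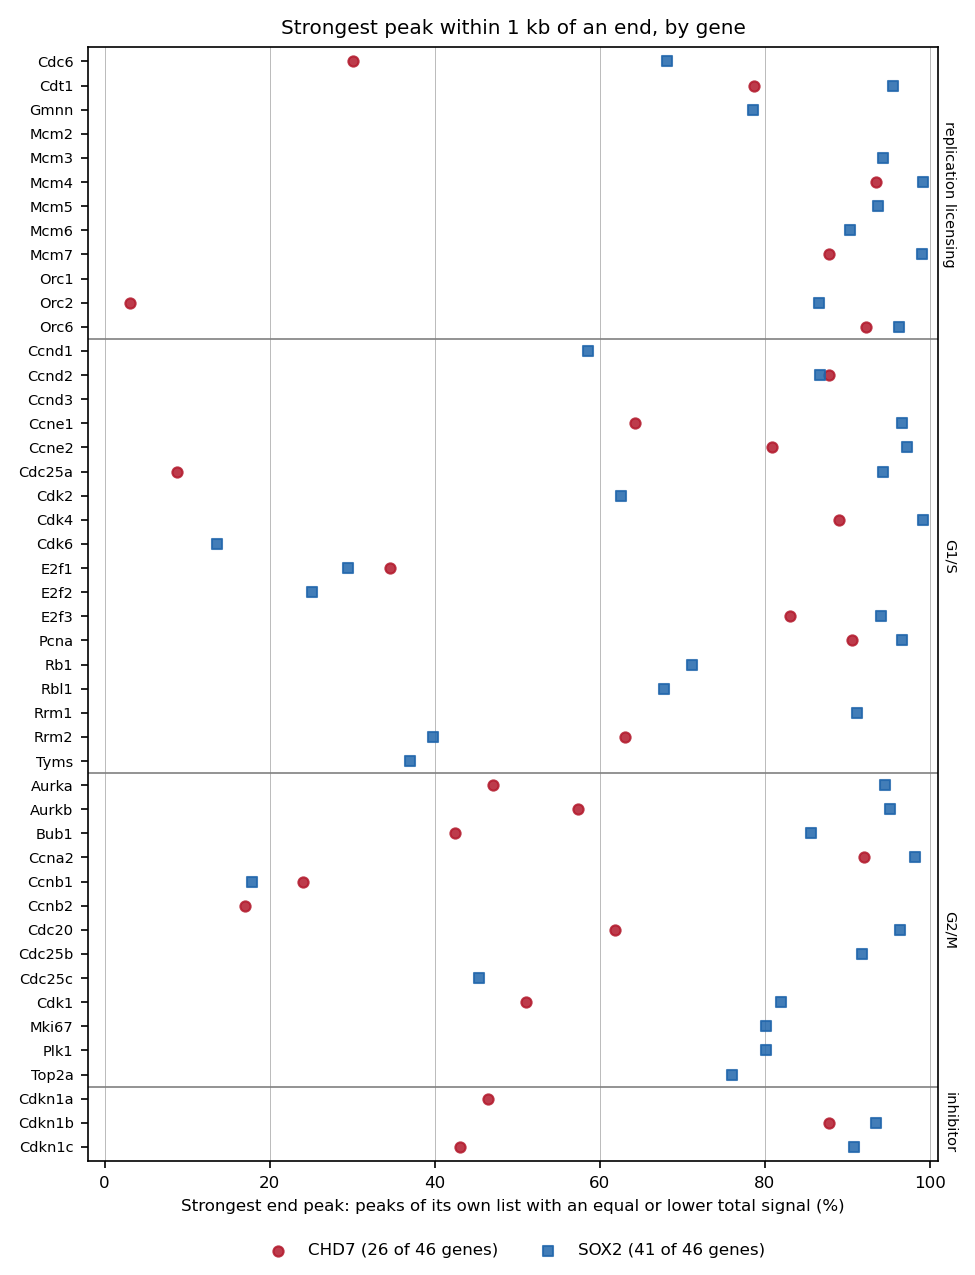
Points give, for each of the 46 genes, the percentile of its strongest end peak by total signal in the CHD7 list (red circles) and in the SOX2 list (blue squares), and a gene without a point has no end peak in that list. SOX2 squares crowd toward the right, with Mcm4 at 99.1 and Cdk4 at 99.2, while CHD7 circles spread from 3.02 at Orc2 to 93.4 at Mcm4.

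In signal and width, the CHD7 end peaks had medians close to those of all gene-end peaks, and the SOX2 end peaks stood somewhat higher. The 29 CHD7 end peaks had a median percentile of 57.3, against 59.6 for the 6047 CHD7 peaks at ends of any protein-coding gene, and a median width of 1050 against 1100 bases. The 59 SOX2 end peaks had a median percentile of 80.1, against 74.3 for all 15298, and a median width of 850 against 800 bases. Of the CHD7 end peaks 24 of 29 overlapped a SOX2 peak, or 82.8% (exact 95% interval 64.2% to 94.2%), against 85.7% of all CHD7 gene-end peaks. Of the SOX2 end peaks 25 of 59 overlapped CHD7, or 42.4% (29.6% to 55.9%), against 35.0% of all.

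The strongest CHD7 end peaks were at ends shared with a neighbouring gene. The 4 in the top 10% of the list, at Mcm4, Ccna2, Orc6 and Pcna, all lay within 1 kb of an end of another protein-coding gene as well. Such shared ends held 8 of the 29 CHD7 end peaks of the members, or 27.6%, against 18.3% of all CHD7 gene-end peaks and 23.8% of those in the top 10%. At 6 members every CHD7 end peak was at such a place, so that a peak cannot be given to the member rather than its neighbour. These genes were Mcm4, Mcm7, Orc6, Pcna, Ccna2 and Aurka. For SOX2 9 of 59 end peaks, or 15.3%, lay at shared ends, against 13.8% of all, and at 6 members every SOX2 end peak did. The share of such genes among all protein-coding genes is not given here for either list.

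Around the genes, the median density of peaks was above that of all protein-coding genes in both lists. Each gene with 50 kb on either side is called its locus here. The 46 loci held 160 distinct CHD7 peaks and 570 distinct SOX2 peaks. The median locus held 3 CHD7 peaks (range 0 to 12), or 2.69 per 100 kb, against 1.54 per 100 kb for all protein-coding genes (interquartile range 0.778 to 2.59). For SOX2 it held 12 peaks (range 2 to 30), or 9.63 per 100 kb, against 7.41 (4.81 to 10.9). Compared with protein-coding genes of like length (10 length groups), 30 of 46 loci were above the median for CHD7, where 39.2% of all protein-coding genes were, and 28 of 46 for SOX2, where 46.5% were. Rrm1 and Mcm6 had no CHD7 peak in their loci, a state shared by 17.1% of all protein-coding genes. The median number of other protein-coding genes in a locus was 3 for the members and 3 for all.

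Most of these peaks belonged to places other than the member's ends. Of the 160 CHD7 peaks 29 were at member ends, 48 at the end of another protein-coding gene, 16 inside the member, 31 inside another gene and 36 between genes. The 570 SOX2 peaks were divided as 59, 104, 58, 173 and 176. Among the CHD7 peaks 115 overlapped a SOX2 peak, or 71.9% (exact 95% interval 64.2% to 78.7%), against 65.3% of the whole list. Away from the member ends this was 91 of 131, or 69.5% (60.8% to 77.2%), and the 131 include the 48 at ends of other genes. Of CHD7 peaks at any protein-coding gene end, 85.7% overlapped SOX2, and such peaks were 6047 of the 33035 in the list. The loci and the whole list were thus not matched for place.

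**Figure D4:**
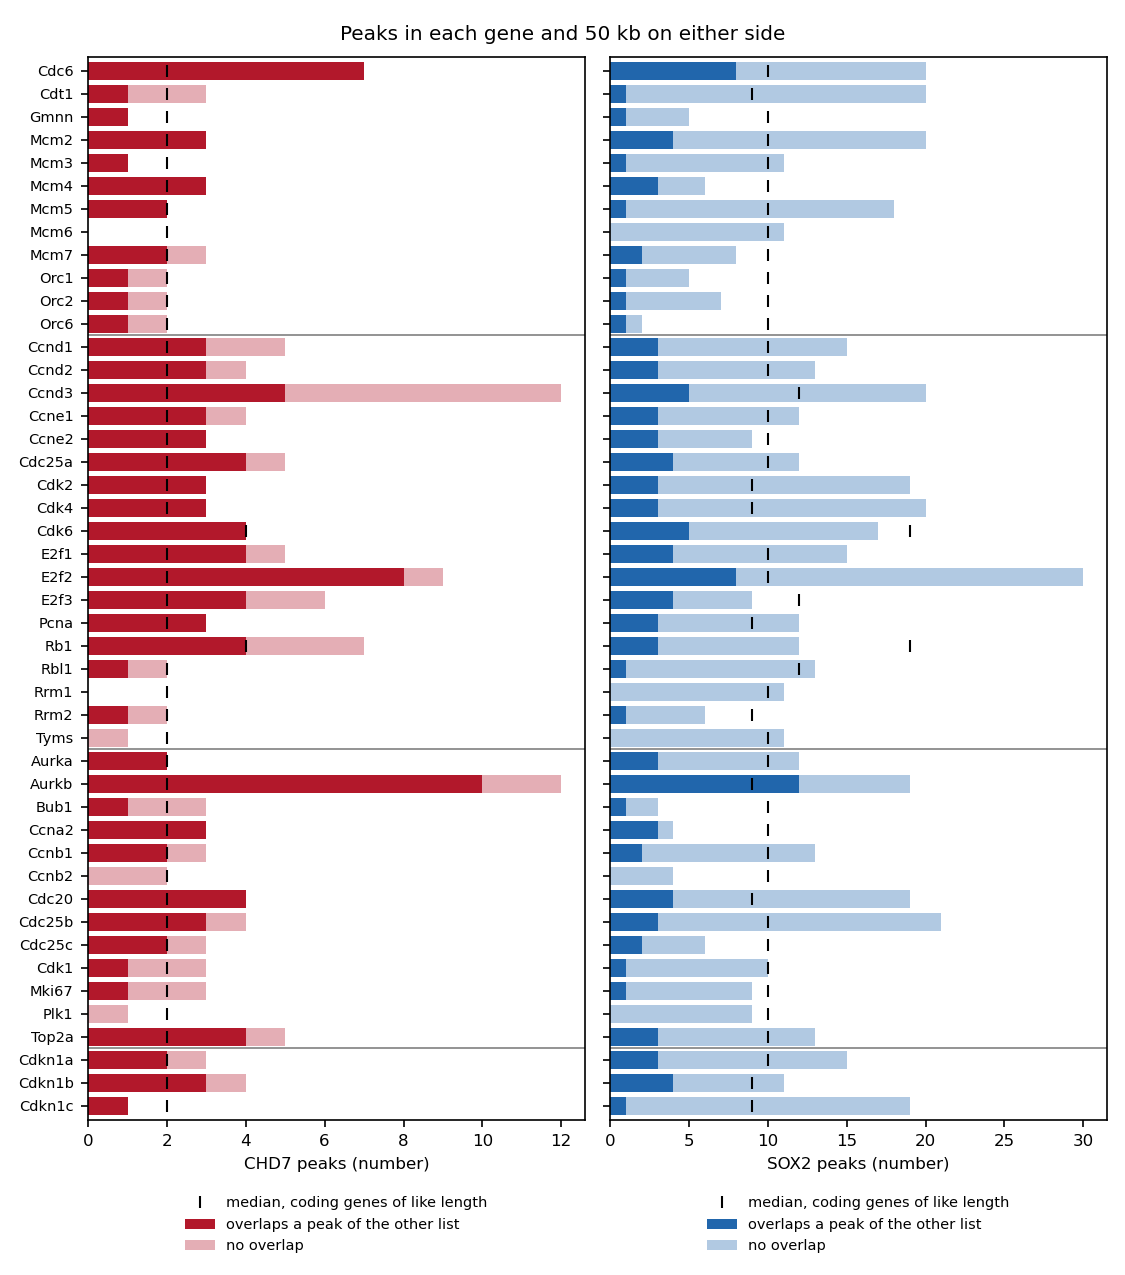
Bars count CHD7 peaks (left) and SOX2 peaks (right) in each gene with 50 kb on either side, dark where the peak overlaps a peak of the other list and pale where it does not, and a black tick marks the median of protein-coding genes of like length. Ccnd3 and Aurkb have 12 CHD7 peaks each, of which 5 and 10 are shared, and E2f2 has 30 SOX2 peaks.

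The strongest peaks near any member lay inside Cdk6 (chromosome 5, 3341004 to 3531008), which encodes the second kinase partner of D-type cyclins. A CHD7 peak at 3435851 to 3439000 had a total signal of 9796, rank 108 in its list, and the SOX2 peak under it, at 3435801 to 3438550, had 28970, rank 70. A further pair lay at 3479401 to 3480450 (CHD7, 7159, rank 193) and at 3479601 to 3480750 (SOX2, 10850, rank 476). A pair also covered the inner start site (CHD7, 1539; SOX2, 3343). All 4 CHD7 peaks in the locus overlapped SOX2. Exons and introns were not separated for these places.

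Other loci held many peaks. Around Aurkb (chromosome 11, 69045624 to 69051664) 12 CHD7 peaks and 19 SOX2 peaks were found, and 10 of the CHD7 peaks were shared. The strongest CHD7 peak there, 4122 (percentile 98.6), was at an end of Tmem107, others were at Borcs6, Ctc1 and Per1, and an overlapping pair between genes had 2068 for CHD7 (69039751 to 69041350) and 7946 for SOX2 (69039701 to 69041350). At Ccnd3 (chromosome 17, 47505051 to 47599689) 5 of 12 CHD7 peaks were shared, and the strongest, 970.1 (percentile 76.7), lay inside the gene with SOX2. At E2f2 (chromosome 4, 136172274 to 136196057) 8 of 9 CHD7 peaks were shared with SOX2, and the strongest (2550, percentile 96.4) was at an end of Id3. Cdc6 had 7 CHD7 peaks, all shared, and 3 of the 7 also fell in the locus of Top2a. Inside Rara and away from gene ends lay 3 of the 7. Further ones lay at an end of Gm46294, also within the span of Rara. Rb1 had 7 CHD7 peaks, of which 4 were shared, and 4 of the 7 lay inside Rcbtb2 or Itm2b. For SOX2, E2f2 (30) and Cdc25b (21) had the most, followed by Mcm2, Cdc6, Cdt1, Cdk4 and Ccnd3 with 20 each.

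**Figure D5:**
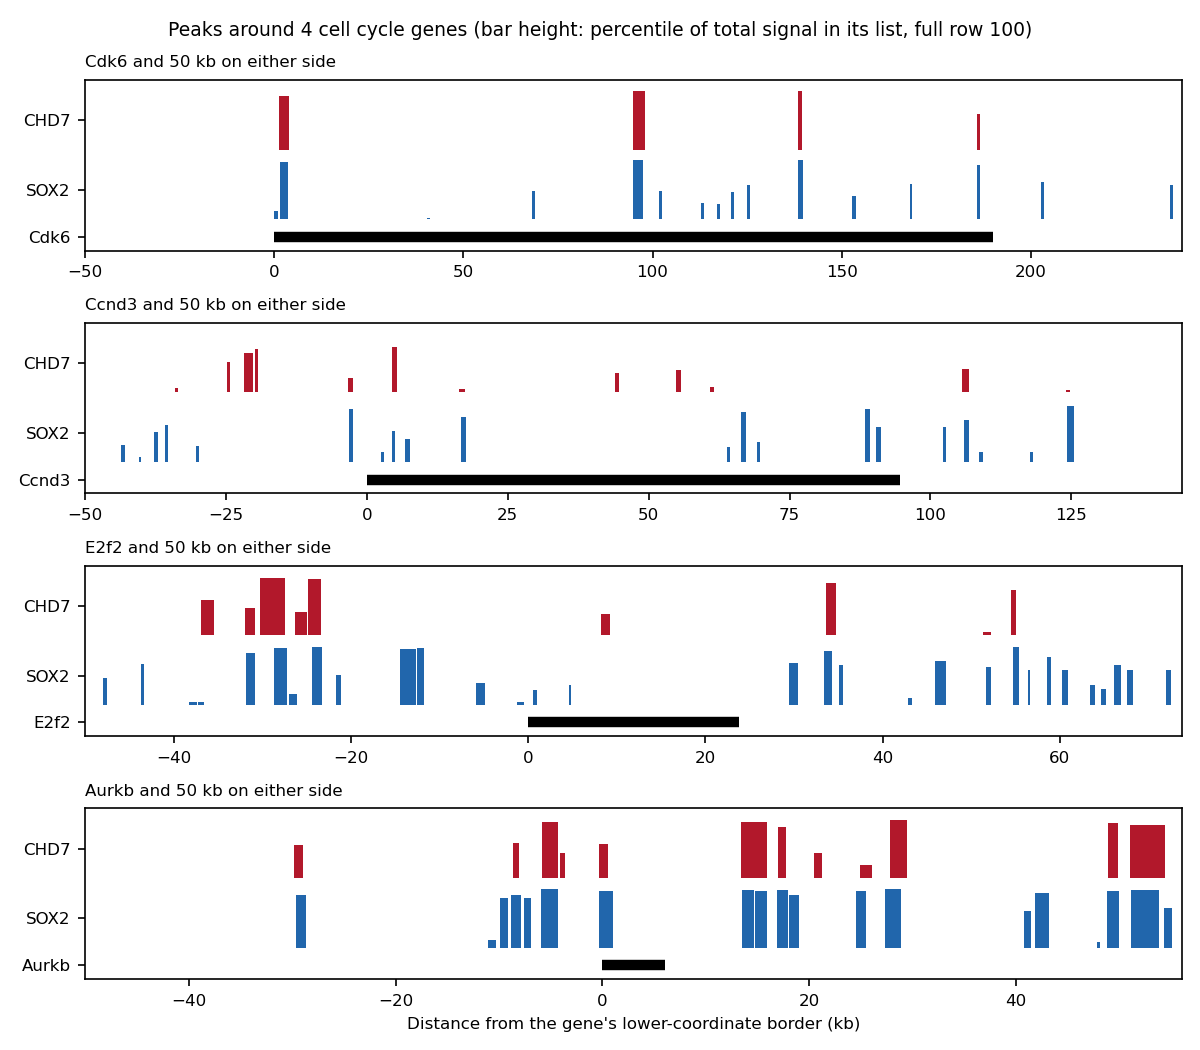
Vertical bars show CHD7 (red, upper row) and SOX2 (blue, lower row) peaks by distance from the lower-coordinate border of Cdk6, Ccnd3, E2f2 and Aurkb, with the gene as a black line, bar height the percentile of total signal in the peak's own list, and narrow peaks drawn at a minimum width. In Cdk6 the tall pairs stand inside the gene, at Ccnd3 many CHD7 bars are low, and around Aurkb 10 of 12 CHD7 bars stand over a SOX2 bar.

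One SOX2 peak near Mcm4 had an unusual shape. It lay inside Prkdc, 5401 bases from Mcm4 (chromosome 16, 15642801 to 15642900), had a maximum signal of 167 and a total of 13750 (rank 286) over its 100 bases, and overlapped a CHD7 peak of 537.4 whose maximum was 6.38. The SOX2 peak at the end of Mcm4 itself had a maximum of 11.7 over 1400 bases. What set this narrow peak apart was not tested.

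A list of 73 other cell cycle genes is given beside the members. CHD7 was at 46 of 73, or 63.0% (exact 95% interval 50.9% to 74.0%), and SOX2 at 62, or 84.9% (74.6% to 92.2%), against 30.8% and 59.7% of all protein-coding genes, and each gene with CHD7 also had SOX2. By class CHD7 and SOX2 were at 8 and 15 of 19 licensing and fork genes, 13 and 16 of 19 G1/S genes, 17 and 23 of 26 G2/M genes and 8 and 8 of 9 inhibitors. Cks1b, for a kinase subunit, had 2145.1 for CHD7 and 6832.2 for SOX2 as the sum over its end peaks. Fbxo5 and Fzr1, which encode an inhibitor and an activator of the anaphase-promoting complex, had 2523.1 and 11230.6, and 2463.9 and 6802.8. The damage-response gene Gadd45a had 1931 and 11054.6, and Cdkn2d, for the CDK4 and CDK6 inhibitor p19, 2318.2 and 5483.3. Gins2 and Gins1, for subunits of the replicative helicase's GINS complex, had 1812.6 and 6245.7, and 906.3 and 2815. Neither protein was within 1 kb of an outer border of Orc4, Pola1, Fen1, Lig1, Skp2, Lin9, Lin54, Cenpa, Kif11, Espl1 or Btg2. Over a start site inside the gene, Orc4 and Skp2 had both proteins and Lig1 had SOX2.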

How the data were processed

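CUT&Tag peak lists of CHD7 and SOX2, 1 library each, were used. Per the submitters' processing notes the tools were Bowtie2, deepTools and SEACR and the build mm10. Tool versions, peak settings and the use of the control: not given in the sources used here. Values per peak are the authors' deposited total and maximum coverage signal, used only to rank peaks within a list.

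Gene borders, start sites and promoters came from RefSeq (GRCm38.p6). A peak was at an end when any base lay within 1 kb of an outer border, in a locus within 50 kb, and shared when 1 base was common. Coordinates count from 1. Intervals are exact binomial (Clopper-Pearson, 95%), with no other test. In each class, full values were set for up to 6 genes with both proteins, taken by the lower-placed of their CHD7 and SOX2 ranks (end signal summed per gene), for those with CHD7 alone or neither, and for the 5 with most locus peaks per list. Members and lists were chosen with earlier results of these data known, and further values given were picked after they were seen. Values of some listed genes are not reported here. Alternatives were other windows, stricter peak sets and other overlap rules. The interval code was tested on simulated data. Software was Python 3.11.15 with numpy 2.4.6, scipy 1.17.1, pandas 2.3.3 and matplotlib 3.10.9.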

Additional observations from a re-analysis of the deposited data

How the results depend on the processing

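The counts of genes with end peaks stayed within 1.5 times their value with gene ends of 500 bases or 2 kb and at start sites only. With the stronger 50% of each list CHD7 was at 16 of the 46 genes and both proteins at 15 (34.8% and 32.6%, against 19.4% and 17.8% of all protein-coding genes), and with the 10000 strongest peaks CHD7 was at 11, SOX2 at 15 and both at 9. Over all protein-coding genes the shares under the 10000 strongest peaks were 13.3% for CHD7, 16.9% for SOX2 and 9.06% for both, against 23.9%, 32.6% and 19.6% of the members. Distinct CHD7 peaks in the loci numbered 85 with the stronger 50%, 53 with the 10000 strongest and 60 with 5 kb on either side. SOX2 peaks numbered 332, 64 and 165 under the same settings and 973 with 100 kb. Such counts change with the number of peaks kept and the span searched. Locus counts over all protein-coding genes under these settings are not given here, so whether the members' higher density holds was not tested. The share of CHD7 peaks in the loci that overlapped SOX2 ran from 66.0% to 77.6% over its 5 alternatives, inside the interval of the value reported. No paired analysis was possible because each antibody has 1 library and no result comes from a test. No replicate could be left out.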
